A study of Mus musculus with 8 samples.

Results

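The genes of the interleukin-2 receptor and STAT5 chain were followed across 8 RNA sequencing libraries of mouse splenic regulatory T cells (Tregs). They were taken from a list of gene symbols and are 8 of the 55487 genes in the deposited tables. They are the ligand Il2, the receptor chains Il2ra, Il2rb and Il2rg, the kinases Jak1 and Jak3, and the transcription factors Stat5a and Stat5b.

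Interleukin-2 is a growth and survival factor of T cells that is made mainly by activated conventional T cells and that Tregs consume. The alpha chain (CD25, from Il2ra) raises the affinity of the receptor, and the beta chain (Il2rb) and the common gamma chain (Il2rg) carry the signal to JAK1 and JAK3, which phosphorylate STAT5. Active STAT5 enters the nucleus and supports Foxp3 expression and the survival of Tregs. The Ncoa3 gene encodes SRC-3, a protein without DNA binding of its own that joins transcription factors on chromatin and aids transcription.

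Per the labels' protocol, Tregs of C57BL/6 mice were sorted as GFP-positive cells, and libraries were made with SMART-Seq v4, which copies and amplifies whole transcripts from little RNA. The 4 groups held 2 libraries each: SRC-3KO and control from tumor-bearing mice, and SRC-3KO and control from mice without a tumor. The titles of both tumor controls and of no-tumor control replicate 2 name Foxp3-Cre, a recombinase placed under the Foxp3 gene. No-tumor control replicate 1 is titled as WT, with no GFP in its source label, so its sort may have differed. Tam1, a word the labels leave unexplained, stands in both no-tumor SRC-3KO titles and in no other. Whatever it stands for cannot be told apart from genotype without a tumor. Mouse ages and the way in which SRC-3 was deleted are not given in the labels. The labels do not say that replicates came from separate animals, so p-values measure only the spread between these samples, which may be technical.

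No-tumor libraries were deposited as read counts, with totals of 27452922 and 31075452 in SRC-3KO against 25251597 and 24159217 in control. Their levels are given as CPM, counts scaled to library size by TMM factors. Tumor libraries were deposited as FPKM, fragments scaled to transcript length and library size, so their depth is unknown. No library is in both tables, so levels are not compared between states. In tumor-bearing mice Ncoa3 stood at 47.5 and 27.7 FPKM in SRC-3KO libraries, against 37.7 and 45.4 FPKM in controls, groups that overlapped (log2 fold change -0.18, limma adjusted p = 0.770). SRC-3KO replicate 1 lay above both controls, so the target gene does not bear out the label of that library, and SRC-3KO below means the libraries labelled so. The values cover the whole gene, and those of undeleted exons would count. Without a tumor its values were 39.6 and 26.7 CPM in SRC-3KO libraries, against 132 and 54.1 CPM in controls (-1.48, edgeR adjusted p = 0.910). Foxp3, the lineage factor of Tregs, was measured at 20.1 and 28.8 FPKM in SRC-3KO libraries, against 18.4 and 14.7 FPKM in controls with a tumor, and at 21.1 and 10.2 CPM in SRC-3KO libraries, against 231 and 20.5 CPM in controls without one. No-tumor control replicate 1 stood apart, though not in 1 direction. The T cell receptor subunit Cd3g was at 1215 and 1357 CPM in SRC-3KO libraries, against 57.8 CPM in that control and 886.6 CPM in control replicate 2. The subunit Cd3e was at 915 and 846 CPM in SRC-3KO libraries, against 1603 CPM in that control and 582 CPM in control replicate 2. Cd3d was also lowest in that control, and Cd4 and Cd247 were highest there.

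Stat5a and Stat5b are neighbouring copies on chromosome 11 whose coding sequences were identical at 2119 of 2343 aligned bases (90.4%) in the GENCODE vM21 transcripts. The longest run common to both transcripts had 324 bases, all coding, at positions 904 to 1227 of the Stat5a transcript and 1058 to 1381 of the Stat5b transcript. Its first 120 bases are shown because a read from them fits both genes.
Stat5a and Stat5b: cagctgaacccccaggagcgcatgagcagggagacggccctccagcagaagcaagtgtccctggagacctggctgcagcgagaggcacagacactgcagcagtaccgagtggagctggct
The next 90 coding bases, at 1228 to 1317 of Stat5a and 1382 to 1471 of Stat5b, show how few bases tell the copies apart. The 2 differing bases are in capitals.
Stat5a: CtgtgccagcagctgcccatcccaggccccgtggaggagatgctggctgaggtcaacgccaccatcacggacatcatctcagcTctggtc
Stat5b: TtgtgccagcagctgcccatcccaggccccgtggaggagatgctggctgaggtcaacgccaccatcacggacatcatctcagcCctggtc
Over all annotated transcripts, the genes shared 608 windows of 50 bases, 8.21% of those of Stat5a and 10.98% of those of Stat5b, and 265 windows of 100 bases (3.44% and 4.79%). The sources used here do not say how reads that fit both copies were assigned, so the split between Stat5a and Stat5b is uncertain.

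In tumor-bearing mice, 4 of the 7 genes tested had both libraries labelled SRC-3KO above both controls and an unadjusted limma p under 0.05. Of all genes tested, 27.5% lay above both controls and 16.5% had such a p in either direction, and the share with both was not counted. The 4 genes were Stat5a, Jak3, Il2ra and Stat5b. Their log2 fold changes of SRC-3KO over control lay between 0.65 and 1.08. With a trend with transcript length and GC content removed, they lay between 0.28 for Stat5b and 0.85 for Il2ra. None passed limma's test adjusted by Benjamini-Hochberg over 12859 genes. In 1 of the SRC-3KO libraries the whole-gene level of Ncoa3 lay above both controls and does not bear out the label. Without a tumor, Il2ra was again higher in both SRC-3KO libraries, while Jak3 and Stat5a were lower in both. None of those no-tumor differences passed the edgeR quasi-likelihood test over 14860 genes, and for Jak3 and Stat5a they turned to 0.66 and 0.0911 once a trend with transcript length and GC content was removed.

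**Figure D1:**
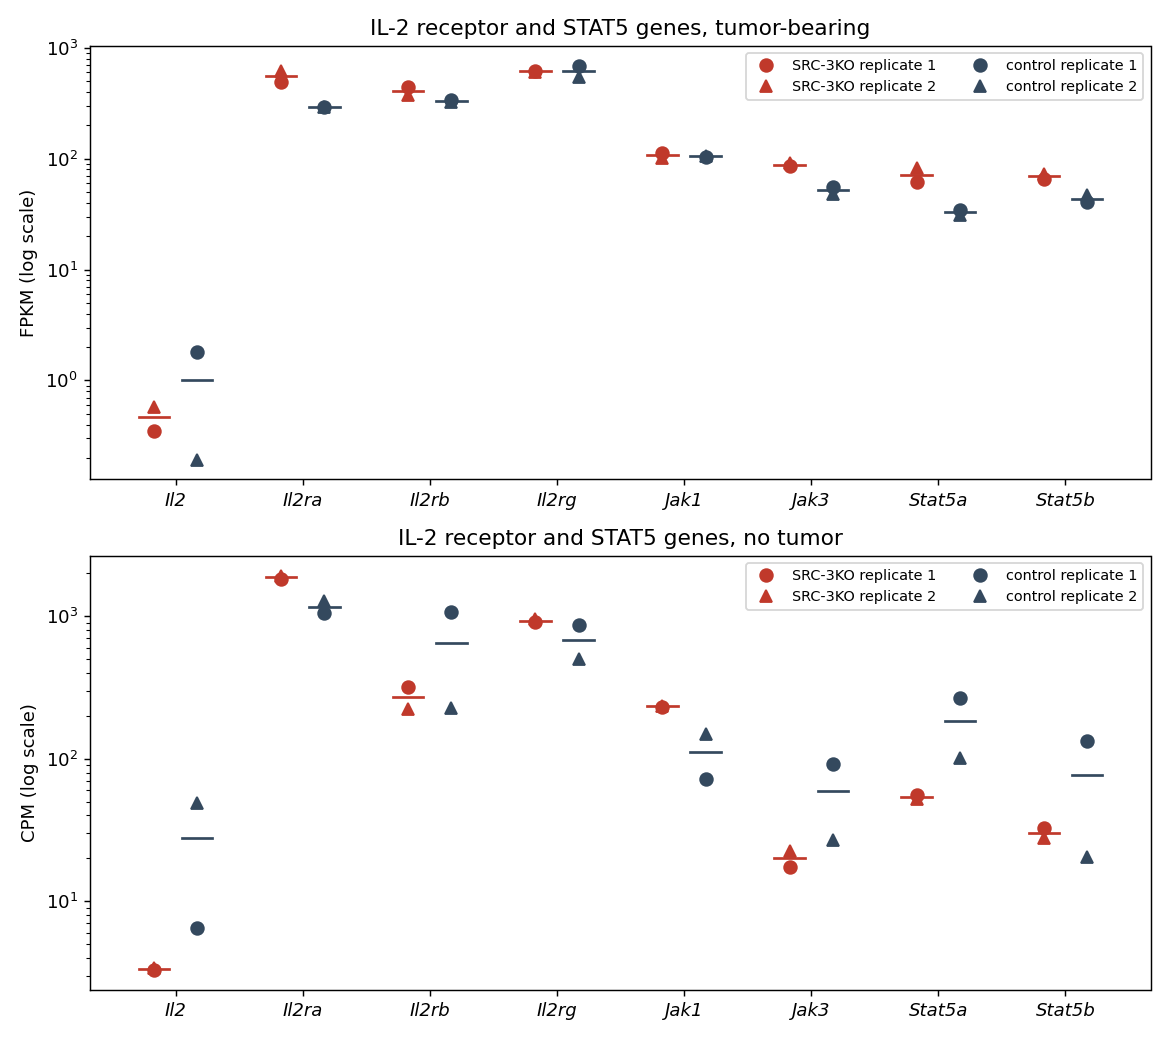
Levels of the 8 genes in each library on log axes, as FPKM in tumor-bearing mice (upper plot) and CPM in mice without a tumor (lower plot), with SRC-3KO in red left of control in dark blue; circles are replicate 1, triangles replicate 2 and lines group means. With a tumor, both SRC-3KO points of Il2ra, Jak3, Stat5a and Stat5b lie above both controls, and without a tumor the 2 controls of Il2, Il2rb, Jak3, Stat5a and Stat5b lie far apart.

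Among all 12859 genes tested with a tumor, 14 (0.109%) passed at an adjusted p under 0.05 and 2119 (16.5%) had an unadjusted p under 0.05, against 0 and 4 of the 7 chain genes tested. Both SRC-3KO libraries lay above both controls in 27.5% of all genes and in 5 of the 7, and below both in 24.9% of all genes and in 0 of the 7. The median log2 fold change was 0.65 over the 7 genes and -0.02 over all genes tested. Without a tumor, 0 of 14860 genes (0%) passed with edgeR, and 472 (3.18%) had an unadjusted p under 0.05, among them Il2 alone of the 8. DESeq2 called 157 genes and limma-voom 0, none of them a chain gene. SRC-3KO lay above both controls in 23.8% of all genes and in 3 of the 8, and below both in 16.9% of all genes and in 3 of the 8. The median was -1.29 over the 8 genes and -0.02 over all genes tested. A single gene compared 2 against 2 cannot reach an exact permutation p below 0.333.

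Il2 encodes the ligand (ENSMUSG00000027720, mm10 chromosome 3, 37120523 to 37125959, minus strand). With a tumor it was listed at 0.347 and 0.581 FPKM in SRC-3KO libraries, against 1.81 and 0.193 FPKM in controls. The groups overlapped, and Il2 stayed under 1 FPKM in all but 1 library, too low to be tested there. With no filter on low values its log2 fold change was -0.33 (limma adjusted p = 0.792). Without a tumor it had 3.30 and 3.41 CPM in SRC-3KO libraries, against 6.48 and 49.2 CPM in controls, from 91 and 97 reads in SRC-3KO against 163 and 1290 in control. The exact Poisson 95% intervals of those counts, which cover counting error only, were 73.3 to 111.7 and 78.7 to 118.3 in SRC-3KO and 138.9 to 190.0 and 1220.6 to 1362.4 in control. Both SRC-3KO libraries were below both controls, and control replicate 2 alone held most of the Il2 reads. The log2 fold change was -3.05 (SE 1.18, edgeR unadjusted p = 0.0417, adjusted p = 0.910). With control replicate 1 left out, the edgeR value was -3.98 (adjusted p = 0.0552), and with control replicate 2 left out it was -0.97.

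The alpha chain gene Il2ra (ENSMUSG00000026770, chromosome 2, 11642807 to 11693193, plus strand) sets high-affinity binding and marks Tregs. With a tumor it stood at 497 and 621 FPKM in SRC-3KO and at 291 FPKM in each control. Both SRC-3KO libraries were above both controls, which did not differ from each other by 1 FPKM. The means were 559 ± 87.8 FPKM for SRC-3KO against 291 ± 0.361 FPKM for control (SD, n = 2 each), giving a log2 fold change, SRC-3KO over control, of 0.93 (SE 0.24, limma adjusted p = 0.203). Its level ranked 86th and 52nd of 12859 genes in SRC-3KO and 301st and 231st in control. Without a tumor Il2ra stood at 1824 and 1913 CPM in SRC-3KO libraries, against 1049 and 1269.6 CPM in controls. SRC-3KO was again above both controls (log2 fold change 0.69, SE 0.89, edgeR adjusted p = 0.910). That difference was 0.45 without control replicate 1 and 0.10 when libraries were scaled to T cell genes, a scaling that moved the median of all genes to -0.62. Il2ra alone of the chain had SRC-3KO above both controls in both states, which 479 of the 11674 genes tested in both (4.10%) did. Gm37881, a predicted gene that lies within Il2ra on the same strand without sharing exons, stood at 46.7 and 68.1 FPKM in SRC-3KO libraries, against 27.9 and 22.4 FPKM in controls with a tumor.

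The beta chain gene Il2rb (ENSMUSG00000068227, chromosome 15, 78479256 to 78495271, minus strand) carries the STAT5 docking sites of the receptor. With a tumor it stood at 442 and 374 FPKM in SRC-3KO libraries, against 341 and 321 FPKM in controls. Both SRC-3KO libraries were higher, by 0.30 on the log2 scale (SE 0.23, limma adjusted p = 0.542), while the value was 0.18 without SRC-3KO replicate 1 and -8.8e-05 with the length and GC trend removed. Without a tumor its values were 320.5 and 225 CPM in SRC-3KO libraries, against 1061 and 227 CPM in controls. Control replicate 1 was several times higher than the other libraries, and the groups overlapped. The log2 fold change of -1.24 (SE 1.05, edgeR adjusted p = 0.910) became 0.17 without that library.

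Il2rg encodes the common gamma chain that interleukins 2, 4, 7, 9, 15 and 21 share (ENSMUSG00000031304, chromosome X, 101264378 to 101268255, minus strand). With a tumor it stood at 624 and 603 FPKM in SRC-3KO libraries, against 691 and 543 FPKM in controls. The SRC-3KO libraries lay between the controls. The means were 613 ± 14.5 FPKM for SRC-3KO against 617 ± 104 FPKM for control (SD, n = 2 each), giving a log2 fold change, SRC-3KO over control, of 0.0016 (SE 0.27, limma adjusted p = 0.998). Without a tumor Il2rg stood at 904.5 and 947 CPM in SRC-3KO libraries, against 865 and 503 CPM in controls. SRC-3KO was above both controls by 0.44 (SE 0.87, edgeR adjusted p = 0.924), and the difference was -0.21 with scaling to T cell genes. Leaving out control replicate 1 gave 0.77, and leaving out control replicate 2 gave 0.0748. Exons of Il2rg overlap those of Gm20489, a gene annotated on the same strand. Gm20489 had 0 counts in the no-tumor libraries and stood at 389 and 379 FPKM in SRC-3KO libraries, against 435 and 340 FPKM in controls with a tumor. How fragments were shared between these annotations was not tested.

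Jak1 encodes the kinase that binds the beta chain (ENSMUSG00000028530, chromosome 4, 101152367 to 101265282, minus strand). With a tumor it stood at 114 and 102 FPKM in SRC-3KO libraries, against 105 and 106 FPKM in controls. The groups overlapped, and the 4 libraries were close together (log2 fold change 0.03, SE 0.19, limma adjusted p = 0.935). Without a tumor its values were 231 and 235 CPM in SRC-3KO libraries, against 71.9 and 150.1 CPM in controls. Both SRC-3KO libraries were higher, by 1.07 on the log2 scale (SE 0.83, edgeR adjusted p = 0.910), and by 0.53 without control replicate 1.

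Jak3 encodes the kinase that binds the common gamma chain (ENSMUSG00000031805, chromosome 8, 71676296 to 71690575, plus strand). With a tumor it stood at 85.4 and 90.7 FPKM in SRC-3KO libraries, against 55.0 and 48.4 FPKM in controls. Both SRC-3KO libraries were above both controls, at 88.1 ± 3.71 FPKM for SRC-3KO against 51.7 ± 4.65 FPKM for control (SD, n = 2 each). The log2 fold change came to 0.76 (SE 0.18, limma unadjusted p = 0.00766, adjusted p = 0.180). It was 0.30 with the length and GC trend removed. Without a tumor Jak3 stood at 17.3 and 22.6 CPM in SRC-3KO libraries, against 91.5 and 26.9 CPM in controls. SRC-3KO was below both controls, near to control replicate 2 and far from control replicate 1. The log2 fold change was -1.57 (SE 0.89, edgeR adjusted p = 0.910), -0.54 without control replicate 1, and 0.66 with the length and GC trend removed. The transcript of Jak3 has the highest GC content of the chain, 61.0%, and that of Il2 the lowest, 39.4%. Exons of Jak3 overlap those of Insl3, a peptide hormone gene on the same strand, which stood at 38.3 and 31.97 FPKM in SRC-3KO libraries, against 18.2 and 18.0 FPKM in controls with a tumor.

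Stat5a (ENSMUSG00000004043, chromosome 11, 100859351 to 100885169, plus strand) had the largest log2 fold change of the 7 genes tested in the tumor state, except with the length and GC trend removed, where it stood at 0.71 and Il2ra at 0.85. It stood at 61.5 and 81.9 FPKM in SRC-3KO libraries, against 34.8 and 31.3 FPKM in controls. The groups did not overlap, and the lower SRC-3KO library was well above the higher control. Means were 71.7 ± 14.4 FPKM for SRC-3KO against 33.1 ± 2.45 FPKM for control (SD, n = 2 each), giving a log2 fold change, SRC-3KO over control, of 1.08 (SE 0.22, limma unadjusted p = 0.00332, adjusted p = 0.156). Without a tumor Stat5a stood at 56.0 and 52.3 CPM in SRC-3KO libraries, against 264 and 102 CPM in controls. Both SRC-3KO libraries were below both controls (log2 fold change -1.76, SE 0.86, edgeR adjusted p = 0.910). That difference was -1.01 without control replicate 1 and 0.0911 with the trend removed. Jak3 and Stat5a were the members with SRC-3KO below both controls without a tumor and above both with one, an order that 833 of 11674 genes (7.14%) had. The difference between the states was not tested.

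Stat5b (ENSMUSG00000020919, chromosome 11, 100780731 to 100850724, minus strand), the second STAT5 gene, stood at 65.6 and 73.0 FPKM in SRC-3KO libraries, against 40.9 and 46.6 FPKM in controls with a tumor. The groups did not overlap, with means of 69.3 ± 5.19 FPKM for SRC-3KO against 43.7 ± 4.05 FPKM for control (SD, n = 2 each). The log2 fold change came to 0.65 (SE 0.19, limma adjusted p = 0.221). It was 0.28 with the length and GC trend removed. Without a tumor Stat5b stood at 32.7 and 27.7 CPM in SRC-3KO libraries, against 133 and 20.4 CPM in controls. SRC-3KO lay between the controls, and the log2 fold change of -1.34 (SE 1.04, edgeR adjusted p = 0.910) became 0.47 without control replicate 1. With the length and GC trend removed that no-tumor value was -0.11. Stat3, whose exons overlap those of Stat5a on the opposite strand, stood at 179 and 149.5 FPKM in SRC-3KO libraries, against 101 and 130.2 FPKM in controls with a tumor. No source used here gives the strand setting of the counting, so reads where these exons overlap cannot be told apart.

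**Figure D2:**
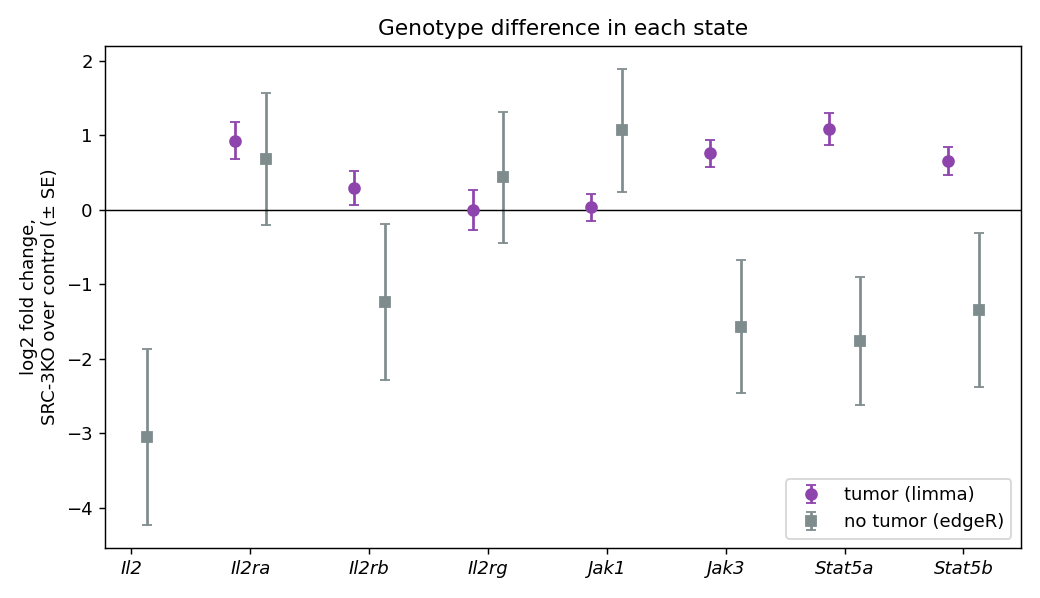
Log2 fold change of SRC-3KO over control for each gene, with bars of 1 SE; purple circles are the tumor libraries (limma) and grey squares the no-tumor libraries (edgeR), 2 libraries per group, with Il2 not tested with a tumor. Tumor values of Il2ra, Jak3, Stat5a and Stat5b lie between 0.65 and 1.08, while no-tumor values of Il2, Il2rb, Jak3, Stat5a and Stat5b are below 0 with wider bars, those of Il2rb, Jak3 and Stat5a turning above 0 with the length and GC trend removed and those of Il2rb and Stat5b without control replicate 1.

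Ratios between transcripts of the chain were described with levels per length, which do not measure the receptor protein. With a tumor, the FPKM ratio of alpha to beta chain was 1.12 and 1.66 in SRC-3KO against 0.852 and 0.906 in control. The ratio of alpha to gamma chain was 0.797 and 1.03 in SRC-3KO against 0.421 and 0.536 in control. Both ratios were higher in SRC-3KO, with no overlap. Without a tumor the RPKM ratio of alpha to beta chain was 4.27 and 6.40 in SRC-3KO against 0.742 and 4.20 in control, and that of alpha to gamma chain was 0.843 and 0.844 in SRC-3KO against 0.507 and 1.05 in control. The alpha to beta ratio of SRC-3KO was again above both controls, though near to control replicate 2, and the alpha to gamma ratios overlapped. The FPKM ratio of Jak3 to Jak1 was 0.751 and 0.888 in SRC-3KO against 0.526 and 0.457 in control with a tumor. Without a tumor that RPKM ratio was 0.102 and 0.130 in SRC-3KO against 1.72 and 0.242 in control, so its order was the opposite one. Stat5a to Stat5b stood at 0.938 and 1.12 in SRC-3KO against 0.852 and 0.673 in control with a tumor. Without a tumor that RPKM ratio was 1.33 and 1.46 in SRC-3KO against 1.54 and 3.88 in control, below both, and all 8 values are subject to the uncertain split between the copies. The ratios to the gamma chain depend on how fragments were shared between Il2rg and Gm20489, which was not tested. No test was run on these ratios.

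In order of mean FPKM in the SRC-3KO tumor libraries, Il2rg was followed by Il2ra, Il2rb, Jak1, Jak3, Stat5a, Stat5b and Il2. Neighbours in that order whose libraries crossed were Il2rg with Il2ra and Stat5a with Stat5b. In the control tumor libraries the order was Il2rg, Il2rb, Il2ra, Jak1, Jak3, Stat5b, Stat5a and Il2, and no neighbours crossed. By mean RPKM in the no-tumor SRC-3KO libraries, the order was Il2rg, Il2ra, Il2rb, Jak1, Stat5a, Stat5b, Jak3 and Il2, again with no crossing. There Il2rg stood at 379 and 397 RPKM and Il2 at 2.89 and 2.98 RPKM. The no-tumor controls had the order Il2rg, Il2ra, Il2rb, Stat5a, Il2, Jak1, Stat5b and Jak3, in which only Il2rb and Stat5a did not cross.

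Leaving out 1 library decided which chain genes passed. Without control replicate 2, the no-tumor fit called 43.8% of 16963 genes and 6 of the 8 chain genes. Il2ra was higher by 0.81 (edgeR adjusted p = 0.0098) and Jak1 by 1.67 (adjusted p = 0.0037), and Il2rb, Jak3, Stat5a and Stat5b were lower by between -2.31 and -1.98 (adjusted p from 0.0021 to 0.0069). The single control is then the library titled as WT, assumed to vary like the SRC-3KO pair. Without control replicate 1 the fit called 1 gene, and none of the chain. In the tumor state, leaving out control replicate 2 called 20.1% of 12460 genes and 4 of the 7 chain genes: Il2ra at 0.93, Jak3 at 0.67, Stat5a at 1.01 and Stat5b at 0.75 (limma adjusted p from 0.0323 to 0.0415). Leaving out control replicate 1 called 3.68% of 12457 genes and 1 chain gene, Jak3, at 0.85 (limma adjusted p = 0.0408). Leaving out either SRC-3KO library called 0 chain genes in either state.

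**Figure D3:**
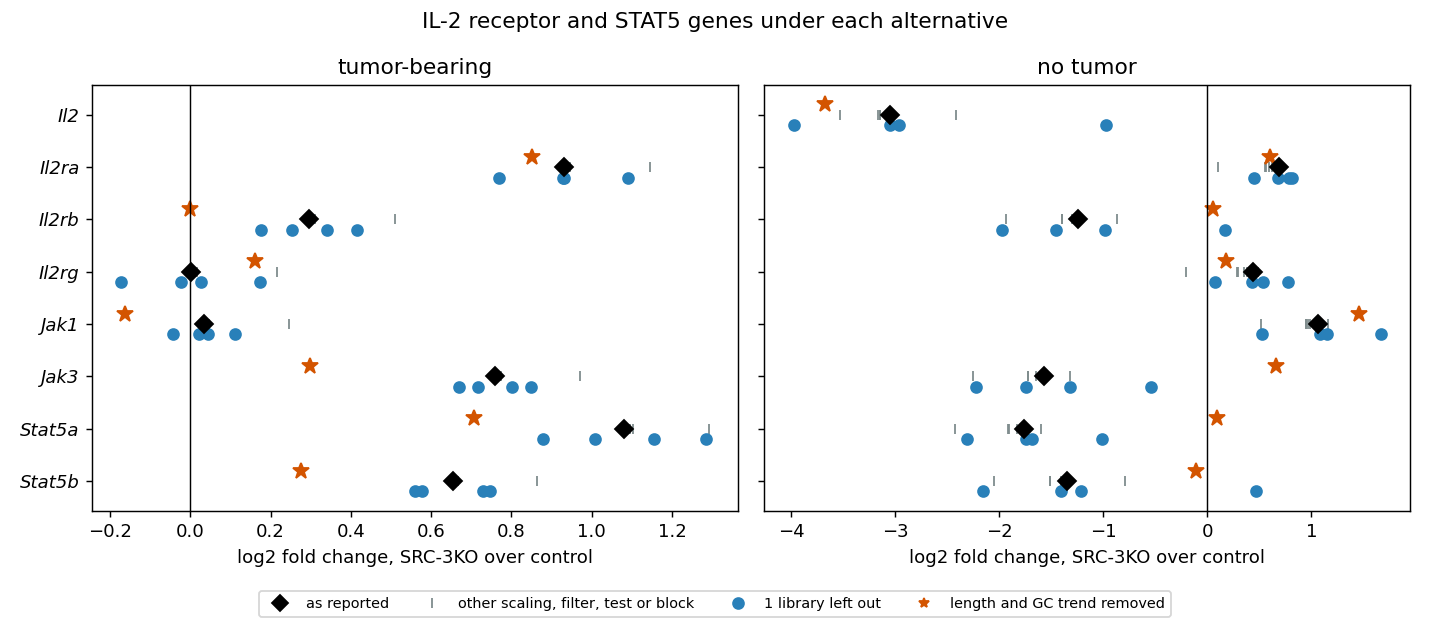
Log2 fold change of SRC-3KO over control for each gene, with a tumor (left) and without one (right): black diamonds are the values as reported, grey ticks other scalings, filters, tests or the replicate block, blue circles fits without 1 library and orange stars fits with the length and GC trend removed. With a tumor, Il2ra, Jak3, Stat5a and Stat5b stay above 0 in every fit; without one, Il2ra and Jak1 stay above 0 and Il2 below 0, and the other 5 genes cross 0 in at least 1 fit, and Il2 has no tumor value.

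Transcripts of other cells differed between the tumor libraries, and those of B and plasma cells followed genotype. B and plasma cell markers summed to 273 and 253 FPKM in SRC-3KO libraries, against 1723 and 2376 FPKM in controls, and of 9 markers 7 were tested, each below both controls and 4 of them past limma's adjusted test. Pax5 was under 1 FPKM in each library. Neutrophil markers summed to 1.42 and 0.180 FPKM in SRC-3KO libraries, against 2.93 and 3477 FPKM in controls, and monocyte and macrophage markers to 10.4 and 7.76 FPKM in SRC-3KO libraries, against 8.28 and 1414 FPKM in controls, both high in control replicate 2 only. Markers of conventional T, CD8 and NK cells summed to 74.7 and 50.7 FPKM in SRC-3KO libraries, against 184 and 125 FPKM in controls, with Cd8a, Klrb1c and Ncr1 under 1 FPKM throughout. Most of that sum was Nkg7, at 50.4 and 28.1 FPKM in SRC-3KO libraries, against 151 and 92.3 FPKM in controls. Of the 6 tested, 4 were below both controls and 1, Cd8b1, above, and the groups of Cd40lg overlapped. The T cell and Treg markers summed to 2837 and 2644 FPKM in SRC-3KO libraries, against 2998 and 2015 FPKM in controls. Taken singly, 5 of these 9 markers had SRC-3KO above both controls and 1 below, against 27.5% and 24.9% of all genes. Their median log2 fold change was 0.32. The part of these cells in the chain's values was not tested. With control replicate 2 left out, the 2.93 FPKM of control replicate 1 was the highest neutrophil sum, and the log2 fold changes were 0.93 for Il2ra, 0.67 for Jak3, 1.01 for Stat5a and 0.75 for Stat5b. The control that remains still held 1723 FPKM of B and plasma cell markers, against 273 and 253 FPKM in SRC-3KO libraries. Scaled to T cell genes, the log2 fold changes were 0.93 for Il2ra, 0.76 for Jak3, 1.08 for Stat5a and 0.65 for Stat5b. The scaling factors were 0.955 and 1.05 in SRC-3KO libraries and 0.819 and 1.22 in controls. They nearly cancelled within each genotype, so this scaling could hardly move a fold change.

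Without a tumor, T cell and Treg markers summed to 6432 and 6572 CPM in SRC-3KO libraries, against 2479 and 4875 CPM in controls. Of these 9 markers, 5 had SRC-3KO above both controls and 2 below, against 23.8% and 16.9% of all genes. Cd247 and Cd4 were the 2 below, and the groups of Cd3e and Foxp3 overlapped. Markers of conventional T, CD8 and NK cells summed to 610.5 and 460.5 CPM in SRC-3KO libraries, against 1743 and 152 CPM in controls, with the most in control replicate 1. Nkg7 again held most of the sum, at 531 and 383 CPM in SRC-3KO libraries, against 1324 and 94.5 CPM in controls. B and plasma cell markers summed to 976 and 505 CPM in SRC-3KO libraries, against 103 and 1502 CPM in controls, with Pax5 under 1 CPM throughout. Neutrophil markers were at most 1.55 CPM in 3 libraries and 157 CPM in control replicate 2. Their part in the chain's values was not tested. In bulk libraries, fewer cells of a type and less RNA per cell cannot be told apart.

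Genes next to the chain in the pathway were described from 6 lists. In each list and state, 0 genes passed the adjusted test. Their counts are read beside the shares of all genes that lay above or below both controls, given above. Of 20 genes known to be induced by interleukin-2 and STAT5, 8 had SRC-3KO above both controls and 3 below in the tumor state. The median log2 fold change was 0.15. An unadjusted limma p under 0.05 was found for 6 of the 20, 5 higher and 1 lower in SRC-3KO, against 16.5% of all genes tested. Ctla4, an inhibitory receptor of Tregs, stood at 231 and 288 FPKM in SRC-3KO libraries, against 151 and 136 FPKM in controls (log2 fold change 0.84, limma adjusted p = 0.203). Prdm1, the transcription factor Blimp-1, stood at 20.6 and 18.3 FPKM in SRC-3KO libraries, against 9.75 and 10.5 FPKM in controls (0.88, limma adjusted p = 0.164). In these 2 genes SRC-3KO was above both controls, and in the kinase Pim2 it was below both. Pim2 stood at 41.1 and 33.7 FPKM in SRC-3KO libraries, against 87.5 and 62.9 FPKM in controls (-0.98, limma adjusted p = 0.183).

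Without a tumor, 7 of those 20 genes had SRC-3KO above both controls and 3 below, with a median of -0.59. Ccnd3, a D cyclin, stood at 27.8 and 29.5 CPM in SRC-3KO libraries, against 421 and 54.1 CPM in controls (-3.05, edgeR adjusted p = 0.910). Tnfrsf9, the costimulatory receptor 4-1BB, stood at 1094 and 937 CPM in SRC-3KO libraries, against 100.04 and 469 CPM in controls (1.83, edgeR adjusted p = 0.910). Both genes had their widest gap to control replicate 1. Foxp3, the other gene named from this list, had overlapping groups without a tumor.

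Feedback inhibitors and phosphatases of the pathway were 9 genes, of which 3 were above and 2 below both controls with a tumor (median -0.00073). Cish, a STAT5-induced inhibitor of the receptor, stood at 237 and 226 FPKM in SRC-3KO libraries, against 168 and 139 FPKM in controls (0.59, limma adjusted p = 0.271). The phosphatases Ptpn6 (SHP-1) and Ptpn2, which remove phosphate from this pathway's kinases, were below both controls. Ptpn6 stood at 112 and 142 FPKM in SRC-3KO libraries, against 208 and 267 FPKM in controls (-0.90, limma adjusted p = 0.209). Ptpn2 stood at 40.1 and 43.4 FPKM in SRC-3KO libraries, against 63.2 and 57.6 FPKM in controls (-0.52, limma adjusted p = 0.263). Without a tumor Ptpn2 was the other way, at 303 and 355 CPM in SRC-3KO libraries, against 65.1 and 190.3 CPM in controls (1.37, edgeR adjusted p = 0.910). There 2 of the 9 were above both controls and 0 below, with a median of -0.93, and Ptpn1 and Socs1, also named from this list, had overlapping groups.

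Of 7 other JAKs and STATs, 4 had SRC-3KO above both controls and 0 below with a tumor (median 0.37). Tyk2, a JAK of cytokine receptors other than this one, stood at 22.5 and 21.8 FPKM in SRC-3KO libraries, against 11.7 and 15.2 FPKM in controls (0.69, limma adjusted p = 0.233). Stat4, which answers interleukin-12, stood at 36.1 and 33.1 FPKM in SRC-3KO libraries, against 22.5 and 22.4 FPKM in controls (0.60, limma adjusted p = 0.228). Without a tumor 2 were above and 3 below (median -1.50), and the lowest fold change was that of Jak2, at 29.7 and 46.2 CPM in SRC-3KO libraries, against 325 and 47.3 CPM in controls (-2.29, edgeR adjusted p = 0.910). Jak2 in SRC-3KO was close to control replicate 2. Stat2 stood at 8.67 and 5.38 CPM in SRC-3KO libraries, against 23.4 and 16.5 CPM in controls (-1.50, edgeR adjusted p = 0.910).

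Among 5 other receptors of the common gamma chain, 4 were tested in each state. With a tumor 1 was above both controls, Il21r, at 135 and 133 FPKM in SRC-3KO libraries, against 104 and 95.6 FPKM in controls (0.42, limma adjusted p = 0.332). Without a tumor Il4ra, the interleukin-4 receptor, was below both controls at 26.9 and 42.2 CPM in SRC-3KO libraries, against 179 and 66.5 CPM in controls (-1.83, edgeR adjusted p = 0.910). Il15ra was above both there, at 89.1 and 108.6 CPM in SRC-3KO libraries, against 36.7 and 84.5 CPM in controls, and the groups of Il7r overlapped in both states. The list medians were 0.22 with a tumor and -0.70 without one. The 5 cytokines that use the common gamma chain summed to at most 8.52 FPKM and 6.68 CPM in a library, and Il9 had 0 counts in both no-tumor SRC-3KO libraries and 3.06 and 1.37 CPM in control. Il15 stood there at 3.74 and 2.005 CPM in SRC-3KO libraries, against 0.159 and 0 CPM in controls.

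Of 9 adaptors and genes of the PI3K arm, 8 were tested. With a tumor 4 were above both controls and 1 below (median 0.15). Shc1, an adaptor that docks on the beta chain, stood at 26.8 and 25.6 FPKM in SRC-3KO libraries, against 14.5 and 17.9 FPKM in controls (0.67, limma adjusted p = 0.229). Mtor, a growth kinase, stood at 5.78 and 7.18 FPKM in SRC-3KO libraries, against 2.54 and 4.33 FPKM in controls (0.78, limma adjusted p = 0.287). Akt1, a kinase downstream of PI3K, was below both, at 73.4 and 73.3 FPKM in SRC-3KO libraries, against 84.1 and 92.2 FPKM in controls. Without a tumor 1 was above and 3 below (median -1.25). Among those below was Sos1, an exchange factor of Ras, at 8.71 and 9.74 CPM in SRC-3KO libraries, against 30.9 and 17.02 CPM in controls. The gene above was Pik3r1, a regulatory subunit of PI3K, at 61.8 and 42.0 CPM in SRC-3KO libraries, against 17.6 and 19.4 CPM in controls (1.49, edgeR adjusted p = 0.910).

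**Figure D4:**
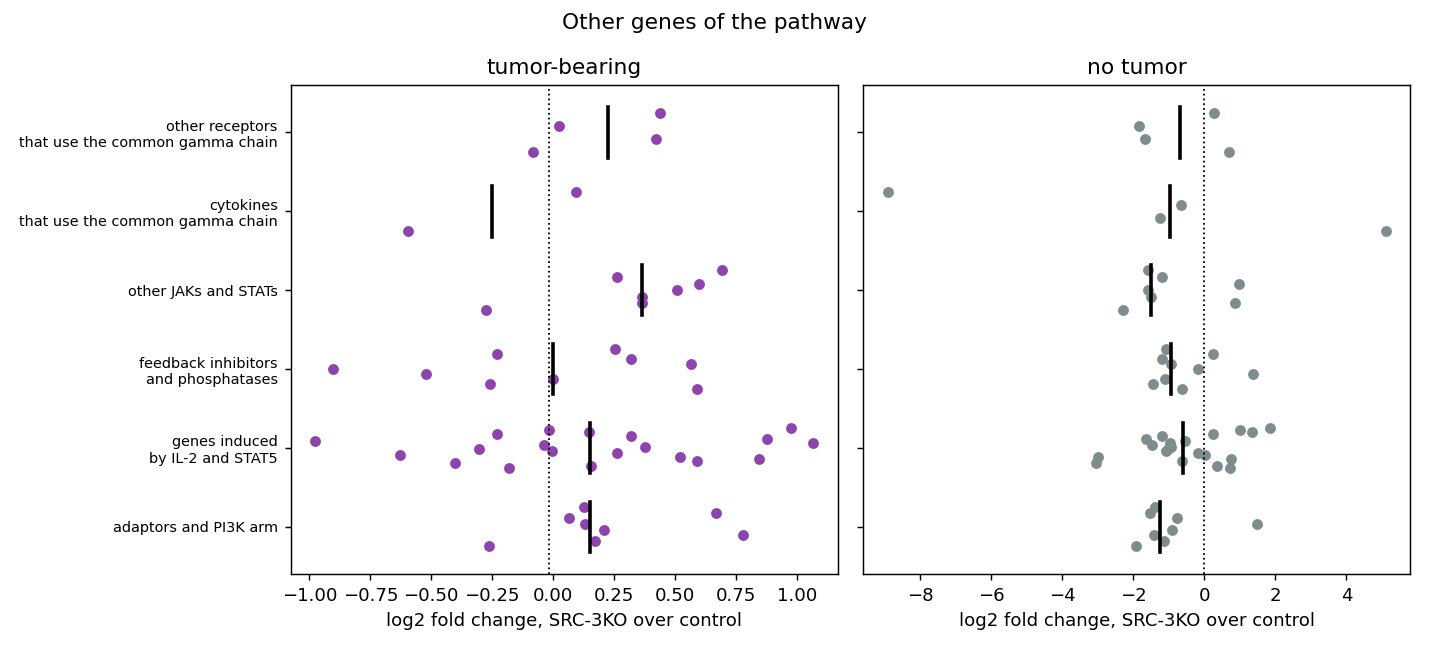
Log2 fold change of SRC-3KO over control for each tested gene of the 6 pathway lists, with a tumor (left) and without one (right); dots are genes, bars list medians and the dotted line the median of all genes tested. List medians lie between -0.25 and 0.37 with a tumor and between -1.50 and -0.59 without one, where the outermost points on either side are Il9 and Il15, whose fitted values depend on the prior count.

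The genes whose pattern was most like that of Il2ra were found by Pearson's r of log2 values centred within each table, over 8 libraries and 4686 genes with a mean of at least 10 in both units. They were Epb41l2 (r = 0.973), Herc4 (0.962), Tspan31 (0.961), Zfand6 (0.958) and Bet1l (0.955). Epb41l2 stood at 12.2 and 13.02 FPKM in SRC-3KO libraries, against 9.17 and 8.61 FPKM in controls with a tumor, and at 21.5 and 19.7 CPM in SRC-3KO libraries, against 14.5 and 16.2 CPM in controls without one. As for Il2ra, both SRC-3KO libraries were above both controls in each state. The 8 points share their genotype groups and their tables, and r is given as a description.

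The STAT5 pattern TTCNNNGAA, where N is any base and which reads the same on both strands, was looked for in RefSeq promoter windows (GRCm38.p6) of 300 bases around gene starts. Of 32851 windows, 2726 (8.30%) held it. It was not found in the 9 windows of the 7 chain genes matched there, which says only that these letters are not in those windows.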

How the data were processed

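RNA of 8 libraries of sorted splenic Tregs was sequenced. Read counts of the 4 no-tumor libraries and StringTie FPKM values of the 4 tumor libraries were deposited by the authors for 55487 genes. Per the submitters' processing notes mm10 was used with STAR and featureCounts, besides FastQC, Trim Galore and edgeR, with no versions. FPKM and StringTie are named per the file headers. No source used here gives the strand setting, the annotation release or the handling of reads with several matches. Gene positions came from GENCODE vM21, to which 55227 gene IDs matched.

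Counts were tested with edgeR 4.0.16 in R 4.3.3, with filterByExpr, TMM (factors 0.916 to 1.09) and a quasi-likelihood test, at a common dispersion of 0.791. CPM are scaled by those factors, and RPKM divide them by the length of a gene's joined exons. FPKM were tested as log2(FPKM + 1) with limma 3.58.1 and an intensity trend, where 2 or more libraries reached 1 FPKM. Fold changes on that scale understate changes of low genes. p-values were adjusted by Benjamini-Hochberg over all genes tested, with a threshold of 0.05. Both fits were tested on simulated data. Results were recomputed with limma-voom and DESeq2 1.42.0, other filters and scalings, a pseudocount of 0.1, a replicate block, removal of a loess trend with transcript length and GC content, and leaving out each library.

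The members, the pathway lists and the markers were chosen with earlier results of these data known. All 8 members are named, with up to 3 genes of each pathway list with the smallest p in each table, and the 5 genes most like Il2ra. Overlapping genes were named after their values were seen. So were single cell type markers that are in no pathway list, among them Cd3g as a check of 1 library. Some markers of the lists are not reported here singly.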

Additional observations from a re-analysis of the deposited data

Results flagged for a closer look

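Members and pathway genes named by smallest p were searched for genotype groups without overlap in either state but with opposite order in the 2 states. Jak3 and Stat5a of the chain, and Prdm1, Ptpn2, Shc1 and Stat3 of the pathway lists, had this pattern. The log2 fold changes of SRC-3KO over control were 0.76 with a tumor and -1.57 without one for Jak3, and 1.08 with a tumor and -1.76 without one for Stat5a. They were 0.88 with a tumor and -1.63 without one for Prdm1, 0.67 and -1.54 in the same order for Shc1, and 0.51 and -1.58 for Stat3. Ptpn2 went the other way, at -0.52 with a tumor and 1.37 without one. The difference between the states was not tested, since the tables hold different units. Of 11674 genes tested in both states, 833 (7.14%) had SRC-3KO below both controls without a tumor and above both with one. The pathway genes searched were picked by their p in these same data, which favours groups without overlap. The share over all genes is therefore no measure for Prdm1, Shc1 and Stat3. The share with the order of Ptpn2 was not counted. None of the 12 fold changes passed its adjusted test. With the length and GC trend removed, Jak3 was at 0.30 with a tumor and 0.66 without one, and Stat5a at 0.71 with a tumor and 0.0911 without one.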

How the results depend on the processing

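Of 165 alternative values of the chain genes, 143 kept their direction and their side of the threshold, 11 passed the adjusted test when 1 control was left out, and 11 changed sign. Sign changes without a tumor were Il2rg at -0.21 with scaling to T cell genes, and Il2rb at 0.0525, Jak3 at 0.66 and Stat5a at 0.0911 with the length and GC trend removed. With 1 no-tumor library left out, Il2rb ranged between -1.98 and 0.17 and Stat5b between -2.16 and 0.47, above 0 without control replicate 1. With a tumor they were Il2rb at -8.8e-05 and Jak1 at -0.16 with the trend removed. With 1 tumor library left out, Il2rg ranged between -0.17 and 0.17, below 0 without control replicate 2 and, at -0.0224, without SRC-3KO replicate 1, and Jak1 between -0.0436 and 0.11, below 0 without SRC-3KO replicate 1. Without a tumor, edgeR called 0 genes, DESeq2 called 157, edgeR with no filter on low counts 70, and fits without 1 library 0 to 7434, with 0 to 6 chain genes. With a tumor, limma called 14 genes, against 7 with a pseudocount of 0.1, 1 with no filter, 5 with median-of-ratios scaling, 6 without receptor segment, haemoglobin and ribosomal genes, 2 with scaling to T cell genes, and 31 to 2510 without 1 library, with 0 to 4 chain genes. The causes were not tested. The tumor titles number the replicates. Differences between replicates 1 and 2 correlated with r = 0.0357 between genotypes over 12859 genes. With 1 such difference per genotype, this cannot show whether libraries of the same number were paired. With the replicate block, 72 genes and 0 chain genes were called. The median of all genes without a tumor moved from -0.02 to -0.15 with median-ratio size factors, -0.62 with scaling to T cell genes and -0.87 with DESeq2 over 26500 genes.

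With 2 libraries per group and a dispersion of 0.791, the no-tumor fit has wide errors, and a difference that did not pass is not shown to be absent. Depth is unknown in the tumor state. Il2 there is too low to test.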
